A study of Mus musculus with 9 samples.

Results

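The genes described here are those of the cytosolic ribosomal proteins, the protein components of the ribosomes that translate nuclear mRNAs. Members were the probe sets annotated to exactly 1 gene whose symbol begins with Rpl or Rps and a digit, or is Rpsa, Rplp0, Rplp1 or Rplp2, without the S6 kinase genes and without pseudogene symbols. This gave 71 of 36701 probe sets, for 45 genes. They comprised 49 probe sets (35 genes) of 12422 on array design A, 2 probe sets (2 genes) of 12411 on design B and 20 probe sets (16 genes) of 11868 on design C. Of the 77 genes on a list of core ribosomal proteins, 38 had a member probe set. The remaining members were 6 paralog genes and Rps19bp1, which encodes a protein that binds Rps19 and shares only its name with the family.

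All 9 Affymetrix MG-U74v2 arrays carried RNA of 1 condition. GFP-positive cells were sorted from retinas of homozygous Tie2-GFP mice at postnatal day 8, after intraperitoneal injections of APB5, an antibody that neutralizes the receptor PDGFRb, from day 0 to day 7. Each of the designs A, B and C was hybridised in 3 replicates, and retinas were pooled before dissociation. Whether each replicate had its own pool of animals is not stated, so every spread below is one between arrays and may be technical. There was no untreated group, so no value below is an effect of the antibody. GFP was driven by the Tie2 promoter, which is active in endothelium and also in some blood cells.

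A ribosome has a small subunit, which holds the mRNA and decodes it, and a large subunit, which joins amino acids and carries a stalk that recruits elongation factors. Growing cells spend much of their transcription on ribosomes, and ribosomal protein mRNAs are among the most abundant in nearly every cell type. Most of these mRNAs begin with a 5′ terminal oligopyrimidine tract, a C followed by a run of C and U, through which mTOR and the RNA-binding protein Larp1 control their translation. Mammalian genomes also hold many processed pseudogenes of each ribosomal protein gene, so that a short probe can match several loci.

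The start sites of member genes are shown first because the pyrimidine tract is a shared feature that the choice of members did not use. RefSeq's promoter table (GRCm38.p6) matched 38 of the 45 genes, with 48 annotated start sites. For 74.7% of 11459 plus-strand genes with 1 start site, the start used here was also the gene's start in RefSeq. This compares RefSeq annotations with each other and does not test at which base transcription begins. A start site without the pyrimidine tract therefore does not show that the mRNA lacks it. The tract was searched on the sense strand only, as a C at the annotated start followed by at least 4 bases that are C or T. It stood at 8 of the 48 member start sites (16.7%), against 2.51% of 32851 start sites of all genes and 2.21% of those of protein-coding genes. All 8 belonged to core genes, which held 40 of the 48 start sites, so that 20% of core start sites had it. The other 8 start sites, of paralogs and Rps19bp1, are too few to set the core genes apart. With the first C within 5 bases of the start on either side, shares were 33.3% for members and 18.3% for all start sites. Both shares were higher than with the tract at the start itself. The 30 bases from 12 before the annotated start are printed below for 8 genes with the tract and for 3 tissue-restricted paralogs without it. The annotated start follows the first 12 bases printed. Capitals mark the run of C and T that holds it, from the first C within 5 bases of it that opens a tract. In 6 of the 8 sequences the capitals begin between 1 and 5 bases before the start. In Rpl38, Rps15a and Rplp2 the run also has T before the capitals, left in lower case.
Rps18 (chr17:33955648-33955677, minus strand): gtcacttccgCTCTCTCTTCCacaggaggc
Rps10 (chr17:27635227-27635256, minus strand): ccgcgcacgCCCCTTCCTTTCCagcctccg
Rps6 (chr4:86857350-86857379, minus strand): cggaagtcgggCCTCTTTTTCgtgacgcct
Rps27 (chr3:90213631-90213660, minus strand): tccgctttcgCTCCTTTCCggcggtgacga
Rps15a (chr7:118116130-118116159, minus strand): tctttctgccatCTTCCCTCgccggtgagt
Rpl35a (chr16:33056470-33056499, plus strand): gggcttgCCTTCCTCTTTCCgccatcttgg
Rpl38 (chr11:114668568-114668597, plus strand): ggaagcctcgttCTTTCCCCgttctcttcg
Rplp2 (chr7:141447639-141447668, plus strand): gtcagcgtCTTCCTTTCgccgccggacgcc
Rpl3l (chr17:24727814-24727843, plus strand): tgttctagctctgtcatttgacctctggtg
Rpl10l (chr12:66284384-66284413, minus strand): ggcctccattttgcggctggcggtgggcac
Rpl39l (chr16:10170216-10170245, plus strand): ccaggcctttccggatttccggtggtcgcc

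A core of ETS factor sites, CGGAAG on either strand, lay within the 300 bases around 26 of the 48 member start sites (54.2%), against 16.9% of all start sites and 21.1% of those of protein-coding genes. Its reverse strand, CTTCCG, can share bases with a pyrimidine tract. Some member genes, such as Rpl35a, have several start sites whose windows overlap, so that 1 match can be counted more than once. A match describes letters in this window and not binding.

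**Figure D1:**
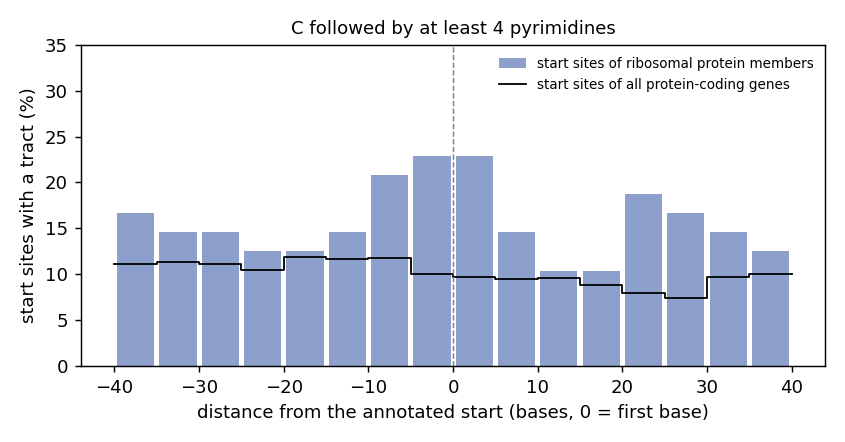
Share of annotated start sites (y axis, percent) that hold a C followed by at least 4 pyrimidines, by the distance of that C from the start (x axis, in bins of 5 bases), for the 48 start sites of member genes (bars) and all start sites of protein-coding genes (line). The member share reached 22.9% in both bins that flank the start, where the line stood at 10.1% and 9.74%, and the gap was smaller in every other bin shown.

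Values are linear intensities as deposited. The position of a probe set is its rank on the array as a percentile, where 100 is the brightest, and is given as the mean and SD over the 3 arrays of its design. A probe set is called high above the 90th percentile on all 3 arrays, and at the floor when it lies at or below the 40th percentile on all 3. Probes differ in how well they hybridise, so a position describes a probe set and is not a transcript level that can be set against another gene's. Array medians lay between 43.6 and 44.3 for design A, 42.9 and 44.5 for design B and 32.3 and 32.9 for design C, and each design was read by itself. Of all probe sets, 8.95%, 8.49% and 8.68% were high on designs A, B and C. Above the 40th percentile on all 3 arrays were 56.6%, 56.4% and 56.4%. Of 20 probe sets for endothelial markers such as Cdh5, Kdr and Tek, 13 were high and 1, of Egfl7, was at the floor. Pecam1 lay at percentile 52.4 on design A and another Kdr probe set at 49.6 on design C. None of 17 mural, 16 photoreceptor and neuronal, 14 glial, 13 macrophage and microglial or 3 erythroid probe sets was high, although 7, 6, 4, 5 and 3 of them lay above the 40th percentile on all 3 arrays. The part of such cells in the ribosomal protein signal was not tested, and in RNA from a whole sort, fewer cells of a type and less RNA per cell cannot be told apart.

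High probe sets made up a larger share of the ribosomal protein members than of all probe sets on designs A and C, but most members were not high, with 26 of 71 in all. On design A, 21 of 49 were high (42.9%), against 8.95% of all probe sets, 18 lay above the 95th percentile on all 3 arrays (36.7%), against 4.32%, and 13 above the 99th (26.5%), against 0.853%. Above the 40th percentile on all 3 arrays were 34 (69.4%), against 56.6% of all probe sets. At the floor were 12 of the 49 (24.5%), against 36.5% of all probe sets. Their median percentile was 87.6, and over the single arrays it was 87.5, 82.4 and 88.6. On design C, 4 of 20 were high (20%), against 8.68% of all probe sets, and 9 were at the floor (45%), against 36.2%, and 10 lay above the 40th percentile (50%), against 56.4%. The same 4 lay above the 95th percentile, against 4.33% of all probe sets, and 1 above the 99th, against 0.834%. The median percentile there was 40.9. On design B, Rps19bp1 was high and Rpl27 lay between the thresholds, where 8.49% of all probe sets were high, 36.3% at the floor and 56.4% above the 40th percentile. Neither lay above the 95th or 99th percentile, as 4.09% and 0.669% of all probe sets did. No test was made of these shares, which describe the probe sets that the annotation gives to 1 gene.

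**Figure D2:**
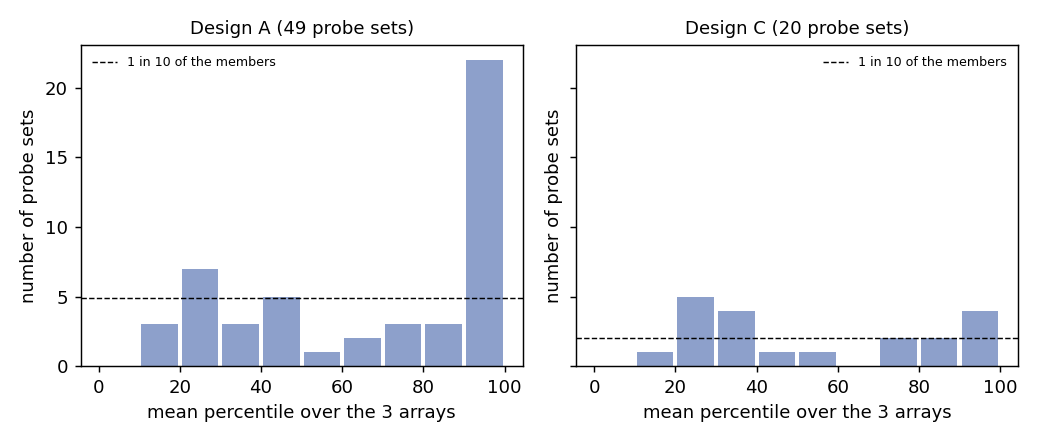
Number of member probe sets (y axis) by mean percentile over the 3 arrays (x axis, in bins of 10) on designs A and C. On design A, 22 of 49 lay in the highest bin and 13 below the 40th percentile, and on design C 4 of 20 lay in the highest bin and 10 below the 40th percentile. The dashed line is the number that an even spread would give.

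Small subunit genes had 24 probe sets on design A, of which 11 were high and 6 at the floor, against 8.95% and 36.5% of all probe sets of that design. Rps3, a protein of the channel through which mRNA enters, read 3109, 3229 and 3226 in replicates 1, 2 and 3, at percentile 99.9 ± 0.017 (SD, n = 3 arrays). Rps18, in the head of the subunit, read 3384, 2950 and 3085, at percentile 99.8 ± 0.041. Rps3a1 read 2704, 2425 and 2543, at 99.7 ± 0.014. All 3 arrays lay close together for each of these, and the highest array was at most 1.15 times the lowest. Rps19, which is mutated in the inherited red cell disorder Diamond-Blackfan anaemia in humans, read 2133, 2247 and 2029, at percentile 99.6 ± 0.042. Rpsa, also known as the laminin receptor precursor, read 1258, 1298 and 1038, at 98.6 ± 0.19. Rps10 read 680, 616 and 520, at 96.4 ± 0.43, so that replicate 3 was the lowest, as it was for Rps19 and Rpsa.

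Rps28, which lies near the exit of the mRNA, had 3 probe sets on design A, and 2 of them were high. They read 3466, 3803 and 3774 (percentile 99.9 ± 0.029) and 1696, 1617 and 1518 (99.2 ± 0.056). The other read 287, 151 and 232 (87.6 ± 4.6), the widest range over arrays of any member above the floor, at 0.93 log2 units. It and the brightest of the 3 were built from the same sequence record, and its name marks it as one that did not meet all probe selection rules.

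Other small subunit probe sets of design A lay lower. Rps15, a protein near the decoding site, read 15.1, 21.4 and 17.6, at percentile 17.1 ± 4.8. Rps14 read 26.1, 26.7 and 32.4 on design A (32.5 ± 3.9) and 19.5, 19.5 and 27.3 on design C (34.1 ± 7.6). Rps29, a zinc-binding protein, had a probe set with 23.2, 17.1 and 25.4 (22.8 ± 6.4) and another with 37.4, 35.7 and 40.8 (44.3 ± 2.4). Rps27, also zinc-binding, read 39.0, 34.1 and 36.1 (42.4 ± 3.1) and crossed the 40th percentile between arrays. Rps7 read 68.1, 49.2 and 44.5, at 56.5 ± 7.7, above the 40th percentile on all 3 arrays. A low position describes the probe set and does not show that a transcript was missing.

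On design C, small subunit genes had 9 probe sets, of which 2 were high and 3 at the floor, against 8.68% and 36.2% of all probe sets there. Rps20 read 1960, 2656 and 2460, at percentile 99.95 ± 0.018, and Rps26, which contacts mRNA at its exit, read 369, 366 and 363, at 97.2 ± 0.47. Rps6, the substrate of the S6 kinases, read 73.2, 64.8 and 76.9, at 77.1 ± 1.9. Rps13 read 126, 107 and 119, at 87.5 ± 0.64, just under the 90th percentile. Rps15a read 14.8, 11.5 and 12.4, at 17.3 ± 3.3, the lowest member on that design.

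**Figure D3:**
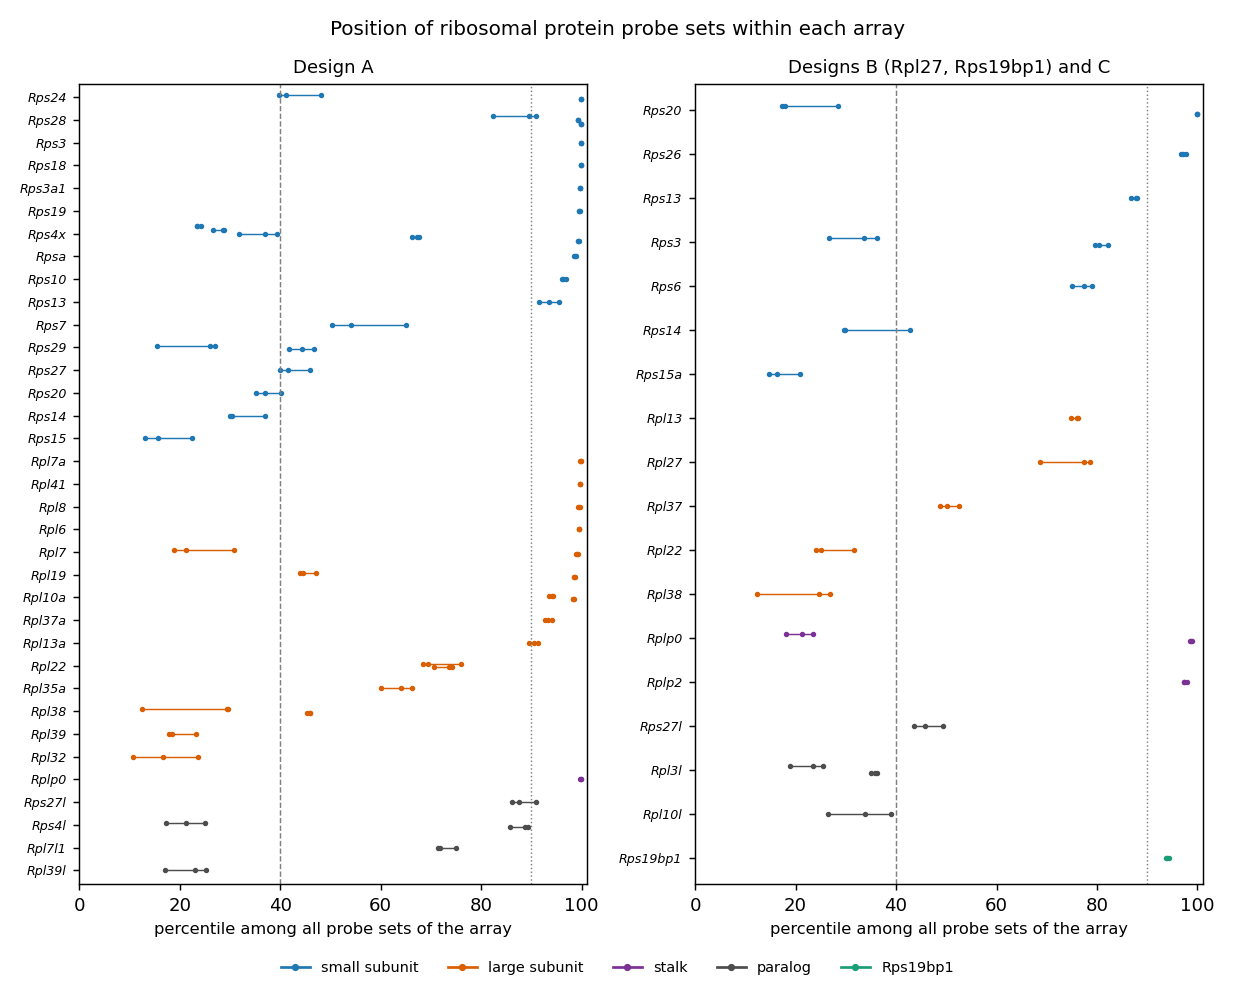
Percentile among all probe sets of the array (x axis) for every member probe set, by gene (rows). Each row of points joined by a line is 1 probe set, and its 3 points are the 3 replicate arrays. Dashed and dotted lines mark the 40th and 90th percentiles. Of the 49 probe sets on design A, 21 lay to the right of the dotted line on all 3 arrays and 12 to the left of the dashed one.

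Large subunit genes had 19 probe sets on design A, of which 9 were high and 4 at the floor, against 8.95% and 36.5% of all probe sets, with a median percentile of 90.4. Rpl7a, whose gene lies in the surfeit cluster, read 3045, 3122 and 2383, at percentile 99.8 ± 0.096. Rpl41, the shortest ribosomal protein, read 2464, 2639 and 2244, at 99.6 ± 0.067. Rpl8, near the site where peptide bonds form, read 1892, 2184 and 1713, at 99.5 ± 0.13. In these the third array was the lowest of the 3. Rpl6 read 1802, 1894 and 1869, at 99.4 ± 0.065, and Rpl19, part of a bridge between the subunits, read 1240, 1156 and 1096, at 98.6 ± 0.13. Rpl37a read 350, 426 and 343, at 93.4 ± 0.72. Both Rpl10a probe sets were high, with 1156, 1083 and 992 (98.4 ± 0.15) and 434, 390 and 385 (94.0 ± 0.42), the only gene with several probe sets of which all were high. Rpl13a, which in human cells can leave the ribosome to silence inflammatory mRNAs, read 249, 300 and 255. Its mean percentile was 90.4 ± 0.87, but its first array lay at 89.5, so it was not counted as high.

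Rpl22, an RNA-binding protein of the large subunit, had 2 probe sets on design A with similar values, 93.7, 84.4 and 94.1 (percentile 72.8 ± 1.9) and 75.9, 108 and 77.8 (71.3 ± 4.1). On design C it read 16.9, 16.5 and 20.5, at 26.9 ± 4.1. Rpl35a read 57.5, 66.0 and 69.4, at 63.4 ± 3.1. Rpl32 read 17.4, 13.9 and 23.1, at 17.1 ± 6.5, and Rpl39, which lines the exit tunnel, read 21.4, 18.5 and 19.6, at 19.8 ± 2.9. Rpl38, which in mouse embryos is needed for the translation of Hox mRNAs, had 3 probe sets, none above the 50th percentile. They read 25.8, 15.1 and 26.9 (23.9 ± 9.8) and 38.5, 39.6 and 40 (45.7 ± 0.33) on design A, and 16.7, 17.9 and 10.6 (21.3 ± 7.8) on design C. On the other designs, Rpl27 read 102, 73.9 and 107 (75.0 ± 5.4, design B), Rpl13 69.4, 64.5 and 69.5 (75.7 ± 0.73, design C) and Rpl37 34.9, 32.0 and 32.5 (50.5 ± 1.9, design C).

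The stalk was represented by Rplp0, its base, and Rplp2, one of the acidic proteins that bind elongation factors. Rplp0 read 3025, 3084 and 2463 on design A, at percentile 99.8 ± 0.076. On design C, 1 Rplp0 probe set read 657, 521 and 506 (98.6 ± 0.19) and another 16.1, 13.3 and 15.1 (20.9 ± 2.7). Rplp2 read 425, 347 and 434 on design C, at 97.6 ± 0.32.

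Of the paralog genes' probe sets, 0 of 5 were high and 2 at the floor on design A, against 8.95% and 36.5% of all probe sets, and 0 of 4 were high and 3 at the floor on design C, against 8.68% and 36.2%. With so few probe sets nothing is read from these counts. Rpl3l, known from heart and skeletal muscle, read 22.9, 22.3 and 22.8 (percentile 35.7 ± 0.63) and 16.1, 13.8 and 17.2 (22.6 ± 3.3) on design C. Rpl10l, known from testis, read 21.6, 17.7 and 24.8, at 33.1 ± 6.3, and Rpl39l, also abundant in testis, read 22.7, 17.99 and 22.7 on design A, at 21.7 ± 4.2. These 4 probe sets lay at the floor on every array, but so did the probe set of the core gene Rpl39, so a place at the floor does not tell the tissue-restricted paralogs from the core genes. Rpl7l1, a paralog of Rpl7, read 87.5, 102 and 83.1, at 72.7 ± 1.9. Rps27l, a paralog of Rps27 and a p53 target, read 210, 188 and 267 on design A (88.2 ± 2.5) and 29.5, 32.3 and 27.7 on design C (46.2 ± 2.9). Rps4l had 1 probe set with 248, 184 and 213 (87.9 ± 1.9), which its name marks as shared with other genes, and another with 17.7, 23.0 and 21.4 (21.1 ± 3.9). Rps19bp1 read 280, 271 and 264 on design B, at 94.0 ± 0.24.

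Probe sets of the same gene differed widely. Of 17 genes with several probe sets, 5 had 1 that was high and another at the floor, namely Rpl7, Rplp0, Rps20, Rps3 and Rps4x. The median gap between the highest and lowest probe set of these 17 genes was 45.9 percentile points. Of the 17, 8 had probe sets on both designs A and C, and Rps3 was among the 5 only across designs. Neither the count nor the gap was computed over other genes with several probe sets, so they do not set ribosomal protein genes apart. Rps4x, an X-linked protein of the small subunit, had 5 probe sets on design A. The first read 1787, 1668 and 1920 (percentile 99.4 ± 0.14), the next 70.8, 75.6 and 72.2 (67.1 ± 0.70), and the other 3 were at the floor. They read 33.1, 27.9 and 32.3 (36.1 ± 3.9), 25.3, 24.0 and 26.3 (28.0 ± 1.2), and 21.6, 22.1 and 23.5 (23.7 ± 0.49). The order of these probe sets was the same on all 3 arrays, and the gaps between the first, the next and the other 3 were larger than the spread between arrays. Rpl7 had 1 probe set with 1482, 1700 and 1319 (99.1 ± 0.18) and another with 18.7, 27.0 and 21.5 (23.7 ± 6.3). Rps3 read 80.3, 85.1 and 81.4 (80.8 ± 1.3) and 22.9, 21.5 and 17.9 (32.1 ± 5.0) on design C, beside the high probe set on design A. Rps20 read 31.3, 34.3 and 31.0 on design A (37.4 ± 2.5), and 18.8, 13.2 and 13.0 in another probe set of design C (21.3 ± 6.3), beside the high one given above. Its probe set on design A passed the 40th percentile on 1 array and the other was the one at the floor. Rpl19 had, beside its high probe set, another with 37.6, 37.8 and 41.2 (45.2 ± 1.6). Rps13 read 524, 304 and 352 on design A (93.5 ± 2.1).

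**Figure D4:**
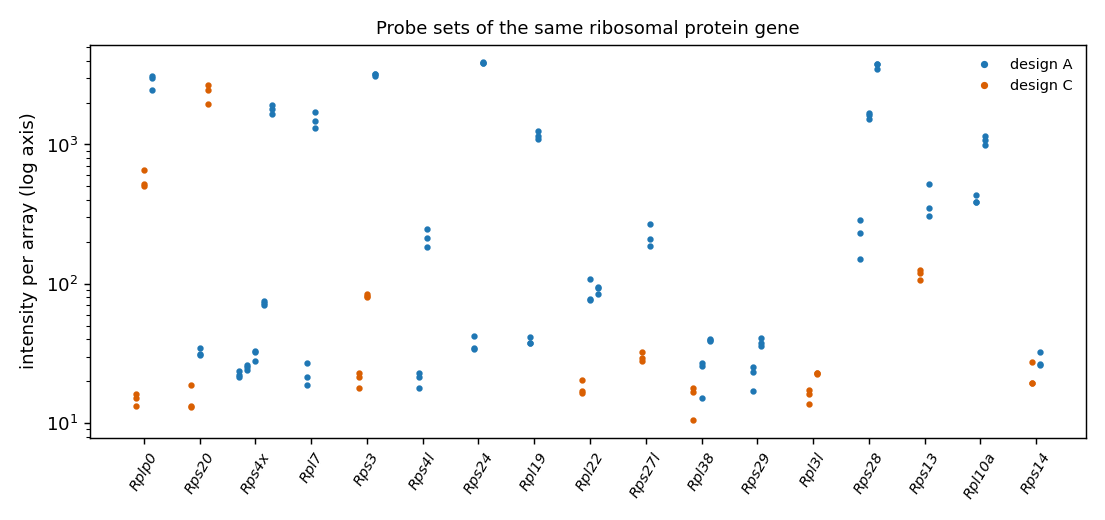
Intensity on each array (y axis, log scale) for the 17 genes with several member probe sets, ordered by the gap in percentile between their highest and lowest probe set. Each column of 3 points is 1 probe set, and colours give the design. Designs A and C differ in probe sets and array medians, so heights compare only within a colour. The Rps4x probe sets on design A run from about 22.4 to 1792 on average.

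The Rps24 probe set with the highest position on design A read 3866, 3879 and 3849, at percentile 99.9 ± 0.012. It was built from the same sequence record as the bright Rpl7 probe set, so its assignment to Rps24 rests on the platform annotation alone. The other Rps24 probe set read 34.5, 34.0 and 42.0, at 43.0 ± 4.4. Rpl7a shares a record with probe sets of its neighbours Surf1 and Surf2, which read 169, 178 and 152 and 191, 195 and 200.

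Members whose record accession begins with AV lay at different positions from the rest, a split chosen after the values were seen. The rest included members with no record given, among them the high Rps20 and Rps26 probe sets of design C. Of 20 members with a record whose accession begins with AV, 2 were high and 11 at the floor, and of the other 51 members 24 were high and 10 at the floor. Most AV members were on design C and most others on design A, so these totals mix record and design. On design A, 1 of 6 AV members was high and 4 at the floor, against 20 and 8 of the other 43. On design C the counts were 1 and 7 of 13, against 3 and 2 of 7. Over all probe sets of design A, 2.92% of those with such records were high and 55.3% at the floor, against 9.32% and 35.4% of the rest. On design B the shares were 6.6% and 50.9%, against 8.63% and 35.2%, and on design C 8.92% and 43%, against 8.58% and 33.3%. By name on design A, 3 of 3 members marked as family-wide were high, against 13.2% of all probe sets so marked, 15 of 34 plain ones, against 9%, 2 of 9 that did not meet all probe selection rules, against 4%, and 1 of 2 marked as shared, against 10.2%. The only one with an incomplete probe selection was not high, against 5.08%. On design C, 3 of 5 family-wide members were high, against 21.7%, 0 of 7 plain ones, against 6.04%, 0 of 3 that did not meet all rules, against 13.2%, and 1 of 5 with an incomplete selection, against 5.81%. A further 52 probe sets, annotated to a ribosomal protein gene together with other symbols, were not members. Of these, 25 were high and 8 at the floor. Of the 39 on design A, 22 were high (56.4%) and 6 at the floor (15.4%), against 8.95% and 36.5% of all probe sets.

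The 8 genes whose sequences with the tract are printed above reached, in their highest probe set, percentile 99.8 (Rps18), 97.6 (Rplp2), 96.4 (Rps10), 77.1 (Rps6), 63.4 (Rpl35a), 45.7 (Rpl38), 42.4 (Rps27) and 17.3 (Rps15a). These are positions of different probes and say nothing about the tract.

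The median SD over 3 arrays was 0.14 log2 units for the 49 members on design A, against 0.13 for all probe sets. For the 21 high members it was 0.10, against 0.14 for all high probe sets, and for the 12 members at the floor 0.19, against 0.13 for all probe sets at the floor. On design C it was 0.17 for the 20 members, against 0.14 for all probe sets, and 0.19 for the 4 high members, against 0.15 for all high probe sets. No member above the 40th percentile ranged over more than 1 log2 unit (0 of 34 on design A, 0 of 2 on B and 0 of 10 on C), against 1.15%, 1.26% and 0.882% of all such probe sets, which does not set the members apart. After those of Rps28 and Rps13 (0.78 log2 units), the widest ranges among members above the 40th percentile on all 3 arrays were, on design A, 0.61 for Rps7 and 0.51 each for Rpl22 and Rps27l, and on design C 0.44 for Rps20, 0.38 for Rplp0, 0.32 for Rplp2, 0.25 for Rps6 and 0.24 for Rps13. On design B the range was 0.53 for Rpl27 and 0.08 for Rps19bp1.

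High members were lowest on the third array of design A. After each array was centred on its median, 14 of 21 had their lowest value there (66.7%), against 62.2% of all high probe sets and 37.2% of all probe sets. The median deviation of the 21 from their own means was 0.09, 0.02 and -0.09 log2 units in replicates 1, 2 and 3, and that of all high probe sets was 0.03, 0.06 and -0.10. Of the 10 high probe sets of the large subunit and stalk, 9 were lowest on the third array, and of the 11 of the small subunit, 5 were. The share among members lay near that of all high probe sets. On design C, 13 of 20 members were lowest on the second array, against 38.6% of all probe sets, with a median deviation of -0.12 there and 0.04 and 0.03 in replicates 1 and 3, but with arrays centred on their high probe sets the deviation on that array was 0.05. Among the 4 high members 2 were lowest there, against 62.4% of all high probe sets.

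**Figure D5:**
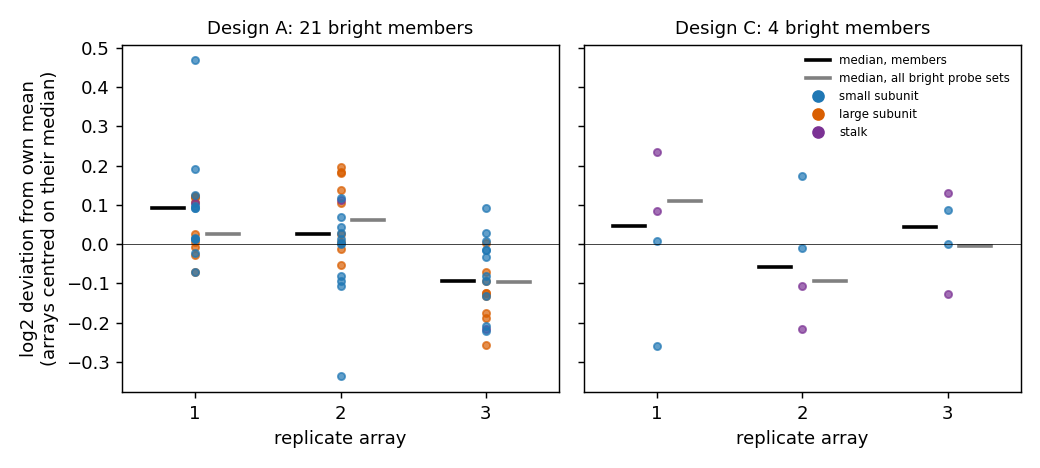
Deviation of each high member from its own mean over the 3 arrays of its design (y axis, log2, arrays centred on their medians) by replicate array (x axis), with 21 probe sets on design A and 4 on design C. Black bars are medians of these members and grey bars medians of all high probe sets of the design. On the third array of design A the medians were -0.09 and -0.10.

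Other genes of translation and ribosome assembly were read in the same way. Of 15 non-ribosomal genes whose mRNAs carry the pyrimidine tract, 14 had probe sets. On design A 7 of 21 were high and 6 at the floor (median percentile 79.8), against 8.95% and 36.5% of all probe sets, on design B 0 of 3 and 3 (12.6), against 8.49% and 36.3%, and on design C 1 of 6 and 4 (30.7), against 8.68% and 36.2%. The same shares of all probe sets apply to the lists that follow. Eef1a1, the elongation factor that brings tRNAs to the ribosome, read 3079, 3192 and 3318 on design A (99.9 ± 0.026), Tpt1, a growth-related protein, 2767, 2866 and 2633 (99.8 ± 0.020), and Npm1, a nucleolar chaperone, 2266, 2158 and 2609 (99.6 ± 0.089). The lowest were Naca, part of the complex that meets nascent chains, at 0.65 ± 0.52 and 6.31 ± 1.3 on design A, where a further Naca probe set lay at 86.7 ± 1.5, and Eef1g at 1.67 ± 1.3 on design B. Npm1 also had probe sets at 12.5 ± 2.6 and 25.6 ± 2.3 on design C. All 25 genes of ribosome assembly were measured. On design A 4 of 26 probe sets were high and 3 at the floor (median 74.4), on design B 0 of 12 and 5 (44.4), and on design C 4 of 12 and 1 (84.8). Nolc1, a nucleolar phosphoprotein, lay at 98.3 ± 0.38 on design C, Nhp2, of the pseudouridylation complex, at 97.5 ± 0.41 and Ncl, nucleolin, at 97.3 ± 0.59 on design A. Other Nolc1 probe sets lay at 81.7 ± 0.60 on design A and at 69.8 ± 4.3 and 38.8 ± 1.1 on design B, the last at the floor. Ncl also lay at 94.5 ± 0.98 and 69.5 ± 1.8 on design C. Sbds, Riok1 and Eif6 had probe sets on design B at 0.41 ± 0.21, 6.77 ± 2.4 and 7.08 ± 1.4. Their probe sets on design A lay at 85.1 ± 0.80 for Sbds, 49.1 ± 7.6 for Riok1 and 92.3 ± 0.74 for Eif6, which lay at 85.0 ± 1.2 on design C.

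Of 19 genes listed for the control of ribosomal protein mRNAs, including their translation, or of rRNA synthesis, 17 had probe sets. On design A 2 of 27 were high and 4 at the floor (median 67.6), on design B 1 of 6 and 2 (59.3), and on design C 2 of 7 and 3 (45.3). Cnbp, a protein that binds such mRNAs, lay at 99.2 ± 0.20 and 98.2 ± 0.37 on design A and Eif4e, the cap-binding factor, at 98.3 ± 0.28 on design C. Other probe sets lay lower, for Cnbp at 56.4 ± 0.78 (design A) and 19.7 ± 1.4 (design C), and for Eif4e at 50.7 ± 3.9 and 34.5 ± 5.0 on design A. Eif4ebp2, which inhibits Eif4e, had a probe set at 2.54 ± 1.4 on design C, Tsc1, an inhibitor of mTOR signalling, one at 6.05 ± 0.84 on design A, and the transcription factor Myc one at 9.05 ± 2.1 on design A. Other probe sets of both inhibitors lay higher. Those of Eif4ebp2 were at 90.9 ± 1.0, 82.1 ± 2.4 and 17.1 ± 2.3 on design A, and those of Tsc1 at 73.7 ± 2.5 (design A) and 90.1 ± 1.1 (design C). Fau was the only gene measured of the ribosomal proteins under other names, and read 36.8, 38.2 and 37.7 on design A, at 43.8 ± 0.47.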

How the data were processed

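Per the labels' protocols, RNA of sorted cells was amplified, labelled with biotin and hybridised. Each deposited table gives, for 1 design, a linear intensity for every probe set on every array. The software and scaling behind these intensities were not given in the sources used here, and detection calls were not used here. Of 36701 probe sets, the platform annotation gives 29131 exactly 1 symbol, 724 several and 6846 none here. No member symbol changed when updated through Entrez identifiers in RefSeq (GRCm38.p6). Percentiles, SDs and deviations from the mean were computed in Python 3.11.15 with pandas 2.3.3, tested on simulated data. Before log2, an intensity of 0 was set to the smallest positive value of its array (no member was at 0). Designs were never compared with each other in intensity. No statistical test was made, since the arrays hold 1 condition. Members and lists were chosen with earlier results of these data known. The genes named are a preset list (24 of 35 measured), the 5 highest, 5 lowest and 5 widest-ranging probe sets of each design, genes with a high probe set and another at the floor, and the 3 highest and 3 lowest probe sets of each further list. Rpl6, Rpl8, Rpl10a, Rpl13, Rpl19, Rpl37, Rpl37a, Rps3a1, Rps10 and Rps29 were named after their values were seen, to account for every member. With 3 arrays a design, precision is limited by their number. Alternatives covered the thresholds, probe set classes, pseudocount, normalization and each replicate left out.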

Additional observations from a re-analysis of the deposited data

How the results depend on the processing

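The values above were recomputed under 152 alternatives for 22 results, and 108 stayed within the spread between arrays or, for counts, within 1.5 times. For the median SD, the spread used was the SD of the values with 1 replicate left out, which are themselves among the alternatives. No paired analysis was possible because all arrays hold 1 condition and no result comes from a test. The median percentile on design A was 72.8 with plain probe set names only, 93.5 with the strongest probe set per gene, 72.7 with the mean per gene and 97.4 over members above the floor only, whose low values are left out by construction. On design B it was 77.02 with probe sets of several symbols, 75.0 with core genes only and 94.0 without AV records. On design C it was 50.5 with plain names, 60.1 with several symbols, 63.1 with core genes or the strongest probe set, 53.5 with the mean per gene, 84.1 above the floor and 87.5 without AV records. The choices on several symbols and AV records were made after seeing the data.

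The count of high members was 43 on design A and 2 on design B with several symbols, 0 on design B at the 95th percentile and 0 on design C with plain names. The count at the floor, with the floor at the 25th percentile, was 4 on design A and 2 on design C. It was 1 on design B with several symbols, and on design C 2 with plain names and 2 without AV records. Genes with a high probe set and another at the floor numbered 1 with plain names, against 5.

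The median SD on design A ranged over 0.0933 to 0.144 log2 units with 1 replicate left out, and was 0.0834 with a pseudocount of 50 and 0.114 above the floor. On design B it ranged over 0.0553 (without replicate 2) to 0.200. On design C it ranged over 0.0702 (without replicate 2) to 0.119, and was 0.0498 with the pseudocount, 0.131 after quantile normalization and 0.115 above the floor. The median deviation of all members on design A, in replicates 1, 2 and 3, was -0.012, -0.038 and 0.011 after quantile normalization and -0.042, -0.050 and 0.086 with arrays centred on their high probe sets, and above the floor it was -0.074 in replicate 3. With that centring it was -0.13 and 0.046 in replicates 1 and 2 of design C. The cause of these moves was not tested. Without detection calls, signal over background is unknown, and members near the floor have no firm order.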
